A study of Mus musculus with 2 samples.

Results

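The genes described here are Ccl2, Ccl7, Ccl8 and Ccl12, which encode monocyte-recruiting chemokines, and Ccr2, which encodes the chemokine receptor CCR2. These 5 genes, of 32228 in the deposited matrices, were selected on the measured UMI counts of Ccl2, which were much lower in neutrophils of the Ring1AKO library, so levels in the cell classes are given as a description and were not tested. All 5 were counted in both libraries. The samples were 1 library labelled WT and 1 labelled Ring1AKO, each from colonic lamina propria (LP) cells pooled from 5 mice, sorted as live CD45+ cells and made with 10x Genomics 3′ chemistry. Mice of both groups were C57BL/6, 8 to 10 weeks old by the labels, and had received dextran sulfate sodium (DSS), which causes colitis. There was no untreated group. Ring1AKO mice carried a knockout of Ring1, also called Ring1a, whose product is an E3 ligase of the Polycomb repressive complex PRC1. The study describes the knockout as affecting the whole body. With 1 library per genotype, the genotype and the library cannot be told apart, and no test between the groups was possible.

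CCR2 is the receptor that lets inflammatory monocytes leave the bone marrow and enter inflamed tissue, where they become macrophages. CCL2 (MCP-1), CCL7 (MCP-3) and CCL12 (MCP-5) are CCR2 ligands in mice, while mouse CCL8 (MCP-2) is best known as a ligand of CCR8. In the inflamed colon, stromal cells and macrophages are known sources of these ligands, and incoming monocytes carry the receptor.

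The 4 ligand genes lie side by side on chromosome 11 of GRCm38, all on the plus strand, within 81229 bp and with Ccl11 between Ccl7 and Ccl12. In GENCODE vM21, Ccl2 (ENSMUSG00000035385) spans chr11:82035571-82037453, Ccl7 (ENSMUSG00000035373) chr11:82045712-82047525, Ccl12 (ENSMUSG00000035352) chr11:82101845-82103400 and Ccl8 (ENSMUSG00000009185) chr11:82115185-82116799, each with 3 exons in its first transcript. Ccr2 (ENSMUSG00000049103) spans chr9:124101950-124113557 on the plus strand. Gm17268 overlaps Ccl2 on the minus strand and had 0 UMIs in the kept cells of either library. A UMI (unique molecular identifier) marks 1 captured transcript. Ccl12 and Ccl8 are neighbours and were the members most concentrated in macrophage-like cells, so the 100 bases before their transcription starts are shown (RefSeq, GRCm38.p6, plus strand, chr11:82101745-82101844 and chr11:82115085-82115184), with the letters TATAAA in capitals.
Ccl12: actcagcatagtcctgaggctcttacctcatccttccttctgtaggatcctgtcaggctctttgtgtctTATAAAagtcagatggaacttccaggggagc
Ccl8: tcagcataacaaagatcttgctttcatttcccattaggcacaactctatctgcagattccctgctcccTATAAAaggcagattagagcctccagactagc
TATAAA, searched on both strands, began 31 bases before the start in Ccl12 and 32 bases before it in Ccl8, and was in 5.56% of 32851 windows of this length. TGANTCA (an AP-1 site), GAGGAA (a PU.1 core), TTCNNNGAA (a GAS element) and an NF-kB site had no match on either strand in these windows. They were in 2.73%, 9.82%, 2.55% and 2.003% of all windows.

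Barcodes with at least 1000 UMIs, 500 genes and less than 5% mitochondrial UMIs were kept, which left 6005 cells in the WT library and 7918 in the Ring1AKO library, with medians of 6354 and 5035 UMIs. Each cell was placed in the class whose marker genes scored highest, and the classes are called monocyte-like and so on. Monocyte-like cells numbered 843 and 268 (14.0% and 3.38% of kept cells, or 21.7% and 8.08% without B-like and plasma-like cells), macrophage-like 210 and 246, neutrophil-like 221 and 255, and dendritic-like 279 and 254. B-like cells were 20.7% and 47.2% of kept cells. All markers of these 4 classes were detected, and between 8 and 103 cells per class and library lay within 0.1 of the score of another class. The libraries shared 11 kept barcodes, of which 0 were in the same myeloid class in both. Ring1 had 828 and 816 UMIs in kept cells, or 13.4 and 11.8 UMIs per 1000000 UMIs (CPM), a log2 ratio of -0.18 (95% interval -0.32 to -0.04). A 3′ count need not show a deletion elsewhere in the gene, whose position was not given in the sources used here, so this does not check the genotype, and WT and Ring1AKO below name the libraries by their labels. A log2 ratio is Ring1AKO over WT with 1 UMI added to each sum. Intervals in parentheses are exact and cover counting error only.

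Ccl2, the main CCR2 ligand, was lower in neutrophil-like cells of the Ring1AKO library and rested there on few cells. It had 139 UMIs in the WT library, or 125 CPM (105 to 147), and 5 UMIs in the Ring1AKO library, or 3.75 CPM (1.22 to 8.76). The log2 ratio was -4.80 (-6.70 to -3.80), and since the genes were selected on this drop, its size is a description only. In these cells 10.7% of 5309 genes with at least 20 UMIs were at least 2-fold lower in Ring1AKO and 2.83% at least 2-fold higher. The median log2 ratio over all 5309 was -0.20 (-0.195). Of 221 WT neutrophil-like cells, 12 carried a Ccl2 UMI (5.43%), and of 255 Ring1AKO cells 3 did (1.18%). The 12 WT cells held 62, 25, 17, 11, 8, 6, 3, 2, 2, 1, 1 and 1 UMIs, and the 3 Ring1AKO cells held 3, 1 and 1. A single WT cell thus held 62 of 139 UMIs and the top 5 held 88.5%. Without the cell with the most UMIs in each library, an alternative chosen after seeing the data, the log2 ratio was -4.96 on 77 and 2 UMIs.

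All 15 neutrophil-like cells with Ccl2 carried S100a8, S100a9, Csf3r, Hdc and Il1r2, which are among the markers that placed them in the class. The other markers were in part of them. Cxcr2 was in 10 of 12 WT and 2 of 3 Ring1AKO cells, Retnlg in 9 and 1, and Mmp9 in 10 and 3. In WT, S100a8 was at 28157 CPM in cells with Ccl2 and 53476 CPM in those without, and Retnlg at 1442 and 5851 CPM. In Ring1AKO, S100a8 was at 73788 and 71450 CPM and Retnlg at 28341 and 17213 CPM. The WT cell with 62 Ccl2 UMIs had 3 UMIs of S100a8 and 2 of S100a9 among 4421, and the cell with 17 had 2 and 8 among 2813. The cell with 25 had 677 and 704 among 11997, that with 11 had 186 and 215 among 4201, and that with 8 had 154 and 194 among 2221. Genes of monocytes were also present in part of these cells. The WT cells with at least 1 UMI of Csf1r, Ccr2, F10 or Vcan, 79 of 221, held 113 Ccl2 UMIs in 6 cells, or 264 CPM (217 to 317), and the 142 without held 26 in 6 cells, or 38.0 CPM (24.8 to 55.6). In the Ring1AKO library the 93 cells with such a UMI held 0 Ccl2 UMIs, which allows up to 6.86 CPM, and the 162 without held 5, or 6.29 CPM (2.04 to 14.7). Ccl2 was higher in WT in both kinds of cell, but these are the counts on which the genes were selected, held by few cells. The split is a description only. The 6 monocyte markers summed to 2807 CPM in WT and 4379 CPM in Ring1AKO neutrophil-like cells, and the 9 macrophage markers to 187 and 161 CPM. Most of the monocyte sum was Thbs1 and Ifitm6, at 2007 and 522 CPM in WT and 2705 and 1273 CPM in Ring1AKO cells without Ccl2. Chil3 and Ly6c2 were also higher there in Ring1AKO, and F10 was at 94.1 and 95.4 CPM. Vcan went the other way, with 13 and 1 UMIs, as did Ccr2 over the class, with 39 and 9. The part of these genes in the Ccl2 values was not tested. Barcodes without a cell (under 100 UMIs) held Ccl2 at 78.7 CPM in the WT library and 63.0 CPM in the Ring1AKO library. With that RNA subtracted at the share given by Igha, an antibody gene, 136 and 0.817 UMIs remained.

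**Figure D1:**
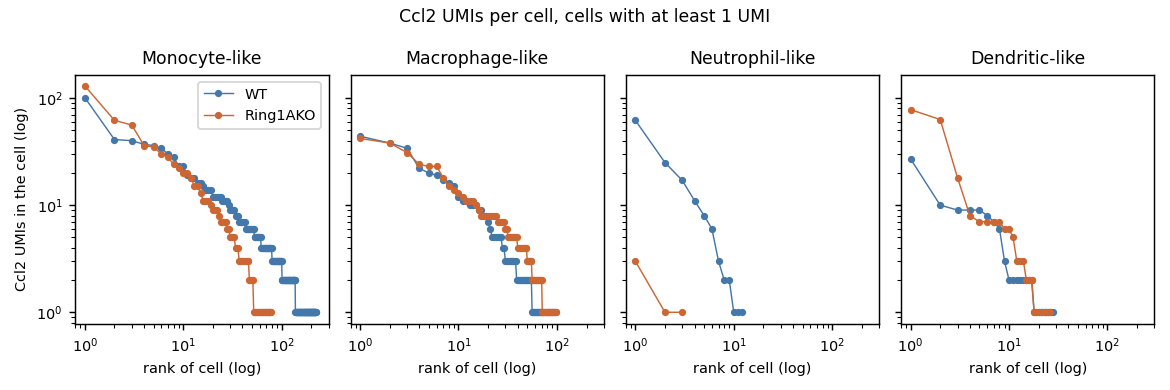
Ccl2 UMIs in each cell with at least 1 UMI (log axis) against the rank of the cell (log axis) in the 4 myeloid classes, with WT in blue and Ring1AKO in orange. In neutrophil-like cells the WT line starts at 62 UMIs and has 12 cells, and the Ring1AKO line starts at 3 UMIs and has 3 cells, while in macrophage-like cells the lines lie close together.

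In the other 3 myeloid classes Ccl2 was higher in Ring1AKO. In monocyte-like cells it had 1152 UMIs in WT, or 147 CPM (138 to 155), and 741 in Ring1AKO, or 352 CPM (327 to 378), a log2 ratio of 1.26 (1.13 to 1.40). In these cells 3.12% of 9468 genes were at least 2-fold higher in Ring1AKO and 8.32% at least 2-fold lower. The share of cells with Ccl2 differed little, 222 of 843 (26.3%) and 78 of 268 (29.1%), whereas each positive cell held 5.19 and 9.50 UMIs. The 5 cells with the most UMIs held 22.1% of them in WT and 43.0% in Ring1AKO, where 1 cell held 130. In macrophage-like cells Ccl2 was at 287 CPM (261 to 315) and 373 CPM (343 to 405), a log2 ratio of 0.38 (0.20 to 0.56), which is under 2-fold. There 4.02% of 7889 genes were at least 2-fold higher and 3.18% at least 2-fold lower. Ccl2 was found in 71 of 210 (33.8%) and 98 of 246 (39.8%) of these cells.

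The makeup of the monocyte-like class differed between the libraries. Of the WT cells, 41.2% fell in a cluster led by Cxcl9 and Gbp2 and 49.9% in one led by Chil3, Vcan and Thbs1, while of the Ring1AKO cells 1.49% and 81.3% did. In the Chil3-led cluster as a whole Ccl2 was at 210 and 338 CPM, a log2 ratio of 0.69 (0.53 to 0.84), which was smaller than in the class. The median macrophage score of monocyte-like cells was 0.0839 in WT and 0.113 in Ring1AKO, and the 9 macrophage markers summed to 1210 and 3420 CPM, and their part in the Ccl2 and Ccl7 values was not tested. In the Cxcl9-led cluster, with 457 WT and 8 Ring1AKO cells, it was at 80.2 CPM in WT.

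Ccl2 in dendritic-like cells was at 25.9 CPM (21.4 to 31.1) in WT and 61.7 CPM (54.1 to 70.1) in Ring1AKO, a log2 ratio of 1.25 (0.93 to 1.59). In these cells 2.72% of 9924 genes were at least 2-fold higher and 7.27% at least 2-fold lower. Nearly the same share of cells carried it, 28 of 279 (10.0%) and 26 of 254 (10.2%), and the top 5 cells held 55.7% and 73.7% of the UMIs. With the 1% of cells with the most UMIs left out, the log2 ratio was 0.36 (-0.12 to 0.85), so that the difference rested on a few cells. By subclass, it was at 33.5 and 60.7 CPM in type 1-like, 24.7 and 133 CPM in type 2-like, and 2 UMIs in each library in mature dendritic-like cells.

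**Figure D2:**
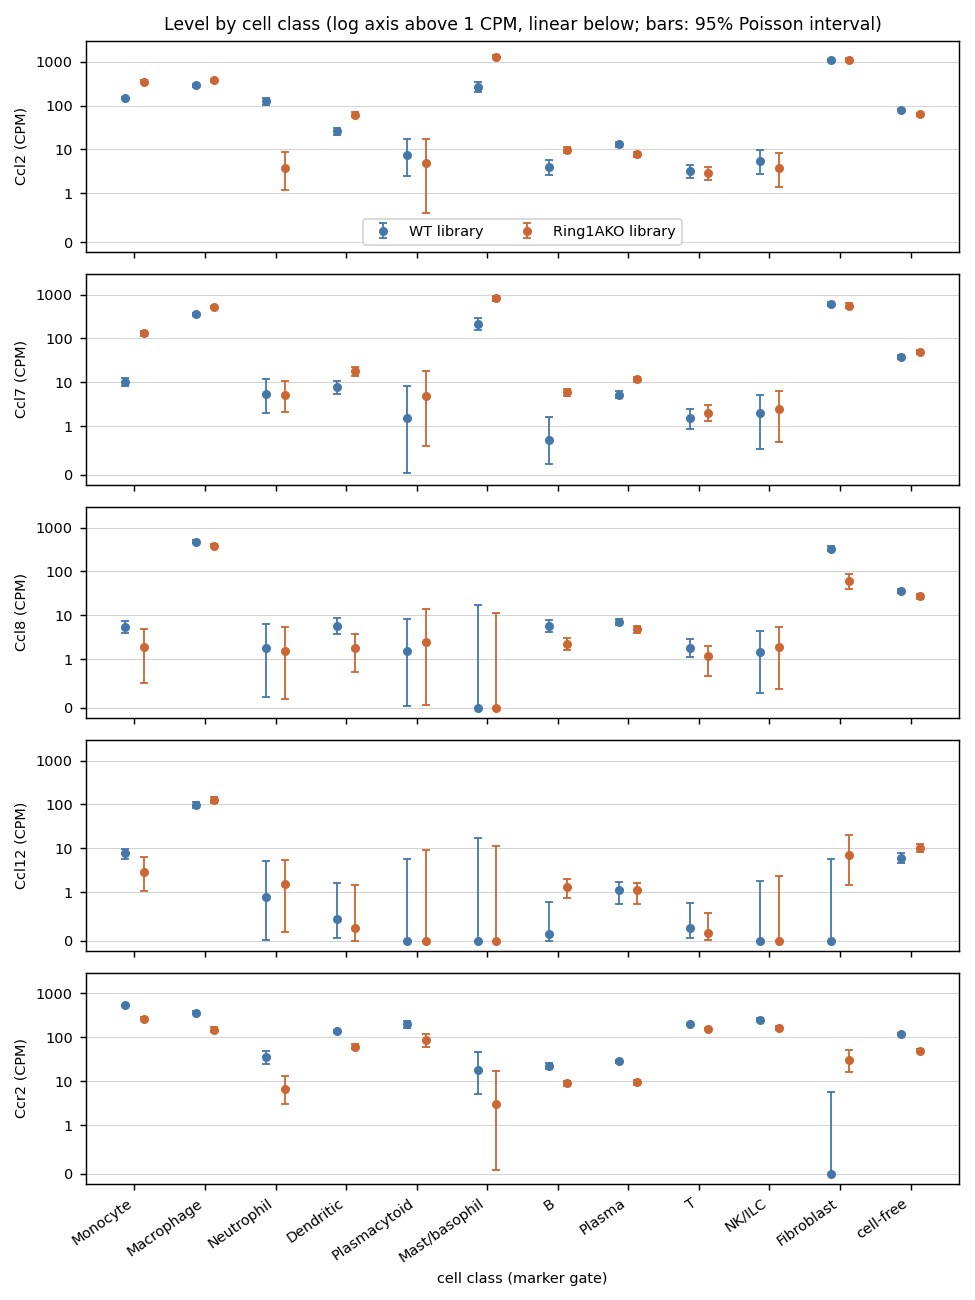
Level in CPM (log axis above 1, linear below) of each gene in each cell class and in cell-free barcodes, with WT in blue and Ring1AKO in orange and bars for exact 95% Poisson intervals. Ccl8 and Ccl12 stand out in macrophage-like cells, Ccl2 and Ccl7 are highest in fibroblast-like cells in WT and in mast or basophil-like cells in Ring1AKO, and the Ccr2 points of Ring1AKO lie below those of WT in every class except the fibroblast-like one.

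Ccl7, a second CCR2 ligand, had its highest levels in CPM in macrophage-like, fibroblast-like and mast or basophil-like cells. In macrophage-like cells it was at 352 CPM (324 to 383) in WT and 526 CPM (491 to 564) in Ring1AKO, a log2 ratio of 0.58 (0.42 to 0.74). In monocyte-like cells it was at 10.3 CPM (8.19 to 12.8) and 130.1 CPM (115 to 147), a log2 ratio of 3.64 (3.29 to 4.03), and 6 of 9468 genes, Ccl7 included, were as high or higher. This difference was carried by few cells. Of 843 WT cells 22 had Ccl7 (2.61%) and of 268 Ring1AKO cells 21 did (7.84%), and 1 Ring1AKO cell held 115 of 274 UMIs. In the Chil3-led cluster the levels were 6.72 and 63.4 CPM, and with classes taken from clusters the log2 ratio over monocyte clusters was 2.09. In dendritic-like cells Ccl7 was at 7.65 and 17.8 CPM, with 49 of 68 Ring1AKO UMIs in 1 cell, and the log2 ratio was -0.040 without the cell with the most UMIs. Neutrophil-like cells had 6 UMIs in WT and 7 in Ring1AKO, too few to show a difference. Cell-free barcodes held 37.9 and 48.6 CPM.

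Ccl8 and Ccl12 were mainly counted in macrophage-like cells. These cells held 59.1% of the Ccl8 UMIs in WT and 72.7% in Ring1AKO, and 61.2% and 74.0% of those of Ccl12. Ccl8 was at 475 CPM (442 to 510) and 385 CPM (355 to 417), a log2 ratio of -0.30 (-0.46 to -0.15), and Ccl12 at 95.4 CPM (80.7 to 112) and 127 CPM (109 to 146), a log2 ratio of 0.41 (0.09 to 0.73). Both ratios were small. That of Ccl12 was -0.15 with a stricter gate and -0.11 as a mean over cells, so its direction was not settled. In monocyte-like cells Ccl8 had 43 and 4 UMIs, a log2 ratio of -1.24 (-3.47 to -0.07) that turned to 0.13 with cells gated on Chil3, Thbs1, C1q and S100a8 alone, and Ccl12 had 60 and 6, a log2 ratio of -1.22 (-2.92 to -0.22). These levels, under 8 CPM, compare with cell-free levels of 36.3 and 27.3 CPM for Ccl8 and 6.15 and 9.99 CPM for Ccl12. Both genes had 0 to 2 UMIs per library in neutrophil-like cells.

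A pair of macrophage clusters, each taken whole, differed in these genes. The cluster led by C1qa, Pf4 and Lyz1, with 83 WT and 99 Ring1AKO cells, held Ccl8 at 1686 and 1128 CPM and Ccl12 at 318 and 350 CPM. The cluster led by C1qa, Retnla, Mrc1 and Mmp12, with 162 and 216 cells, held Ccl8 at 21.6 and 28.2 CPM and Ccl12 at 9.44 and 24.7 CPM. Of its cells, 82 and 135 were macrophage-like and 62 and 42 monocyte-like, and the part of this mix was not tested. The log2 ratio of Ccl8 was -0.58 (-0.75 to -0.42) in the first and 0.37 (-0.29 to 1.08) in the other. Ccl7 was at 601 and 600 CPM in the first and at 187 and 416 CPM in the other, with log2 ratios of -0.0041 (-0.25 to 0.25) and 1.15 (0.95 to 1.36). Ccl2 was higher in Ring1AKO in both, at a log2 ratio of 0.43 in each. The clusters differed in depth, with medians of 2695 and 3374 UMIs in the first and 9167.5 and 7688.5 in the other.

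Ccr2, the receptor, was lower in Ring1AKO in each of the 4 myeloid classes. Monocyte-like cells had 4223 UMIs in WT, or 538 CPM (522 to 554), and 565 in Ring1AKO, or 268 CPM (247 to 291), a log2 ratio of -1.0005 (-1.13 to -0.88). In the Chil3-led cluster alone it was -0.99 (-1.13 to -0.85), close to the value of the class. Macrophage-like cells had 365 and 151 CPM, a log2 ratio of -1.27 (-1.50 to -1.05), dendritic-like cells 136 and 60.4 CPM, a log2 ratio of -1.17 (-1.40 to -0.95), and neutrophil-like cells 39 and 9 UMIs, a log2 ratio of -2.26 (-3.61 to -1.30). The macrophage clusters, taken whole, differed. The ratio was -0.27 (-0.81 to 0.28) in the C1qa, Pf4 and Lyz1 cluster and -1.42 (-1.63 to -1.22) in the C1qa, Retnla, Mrc1 and Mmp12 cluster. The latter held 62 WT and 42 Ring1AKO monocyte-like cells beside 82 and 135 macrophage-like ones, and the part of this mix was not tested. Of macrophage-like cells, 17.6% in WT but 1.22% in Ring1AKO lay in the Cxcl9-led cluster. With a stricter gate the dendritic-like ratio was -0.26, and without the highest 8% of doublet scores the neutrophil-like ratio was -0.42 on 6 UMIs in each library. Unlike Ccl2, Ccr2 was spread over many cells in the monocyte-like class, where the top 5 cells held 3.03% and 11.3% of its UMIs. In the neutrophil-like class it was in few cells, 14 of 221 in WT and 5 of 255 in Ring1AKO.

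Ccr2 was also lower in Ring1AKO in the lymphoid classes taken whole, with smaller ratios in T-like and NK and innate lymphoid-like cells, but not in every cluster. T-like cells had 199.9 and 154 CPM, a log2 ratio of -0.38 (-0.47 to -0.29), where 3.44% of 11759 genes were at least 2-fold lower and 1.81% at least 2-fold higher. NK and innate lymphoid-like cells had 253 and 165 CPM, a log2 ratio of -0.62 (-0.84 to -0.40), where 4.62% of 8867 genes were at least 2-fold lower and 2.42% at least 2-fold higher. Over 11 alternatives this ratio lay between -0.69 and -0.17. An NK and innate lymphoid cluster was higher in Ring1AKO, at 0.68 (0.18 to 1.19), and another was lower, at -0.49 (-0.75 to -0.25). Among T clusters, Ccr2 was highest in the one led by Tnfrsf4 and Foxp3, at 761 and 434 CPM, and differed there by a log2 ratio of -0.81 (-0.93 to -0.70), but only by -0.11 (-0.31 to 0.09) in the one led by Il17a. Other T clusters included ratios of 0.06 (-0.82 to 0.98) and 0.03 (-0.28 to 0.35).

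Other values moved with Ccr2. Ptprc, which encodes CD45 and was chosen after its values were seen, was also lower in Ring1AKO, at 1233 and 643 CPM in monocyte-like, 930 and 645 CPM in macrophage-like, 1453 and 770 CPM in neutrophil-like, 749 and 379 CPM in dendritic-like and 1483 and 843 CPM in T-like cells. Its log2 ratios in these classes lay between -0.98 and -0.53. Cell-free Ccr2 was at 120 (119.7) CPM in WT and 49.7 CPM in Ring1AKO. B-like cells (22.0 and 8.93 CPM) and plasma-like cells (28.7 and 9.52 CPM) lay below these levels. Their log2 ratios were larger than those of the other lymphoid classes, at -1.30 and -1.59, and the B-like ratio turned to 0.70 with classes from clusters. The part of either in the Ccr2 values was not tested. Over all genes with at least 20 UMIs the median log2 ratio was -0.17 in monocyte-like, -0.00 (-0.00095) in macrophage-like and -0.17 in dendritic-like cells.

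**Figure D3:**
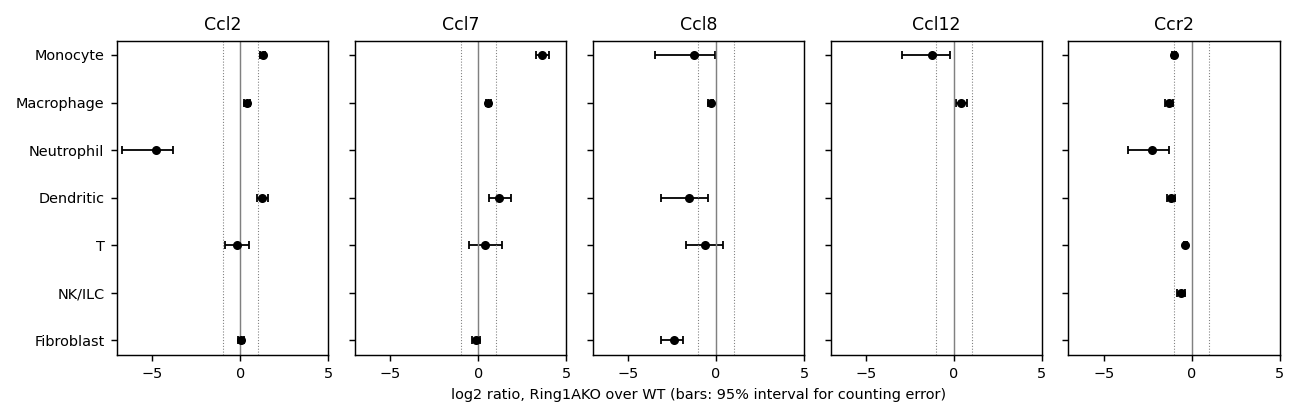
Log2 ratio of Ring1AKO over WT for each gene in 7 cell classes with at least 20 UMIs of the gene, with bars for the 95% interval of counting error and dotted lines at 2-fold. Ccl2 in neutrophil-like cells, at -4.80, stands apart from Ccl2 in the other myeloid classes, which lie between 0.38 and 1.26, and all Ccr2 points lie left of 0.

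Shares of cells were compared after each cell was thinned to 1000 UMIs, since depth differed between classes and libraries. Thinned shares with Ccr2 were 39.9% (36.5 to 43.2) in WT and 19.8% (15.2 to 25.1) in Ring1AKO for monocyte-like cells, against 87.1% and 67.9% unthinned. In macrophage-like cells they were 27.1% and 15.04%, in dendritic-like cells 15.1% and 7.87%, and in T-like cells 11.8% and 9.62%. The intervals of WT and Ring1AKO overlapped in the dendritic-like and T-like cells and were apart in the other 2. These intervals take each cell of 1 library as a trial and are no test between genotypes. For Ccl2 the thinned shares were 9.49% (7.60 to 11.7) and 12.3% (8.63 to 16.9) in monocyte-like and 19.5% (14.4 to 25.5) and 21.1% (16.2 to 26.8) in macrophage-like cells, with overlapping intervals. In neutrophil-like cells 7 of 221 (3.17%, 1.28 to 6.42) and 0 of 255 (up to 1.44%) cells kept a Ccl2 UMI. T-like cells, which should lack Ccl2, had a UMI in 1.70% and 2.001% of cells unthinned and 0.352% and 0.389% thinned, at medians of 5706 and 5636 UMIs. Neutrophil-like cells had medians of 4382 and 4965 UMIs, and their Ring1AKO share of 1.18% lay below that of T-like cells.

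**Figure D4:**
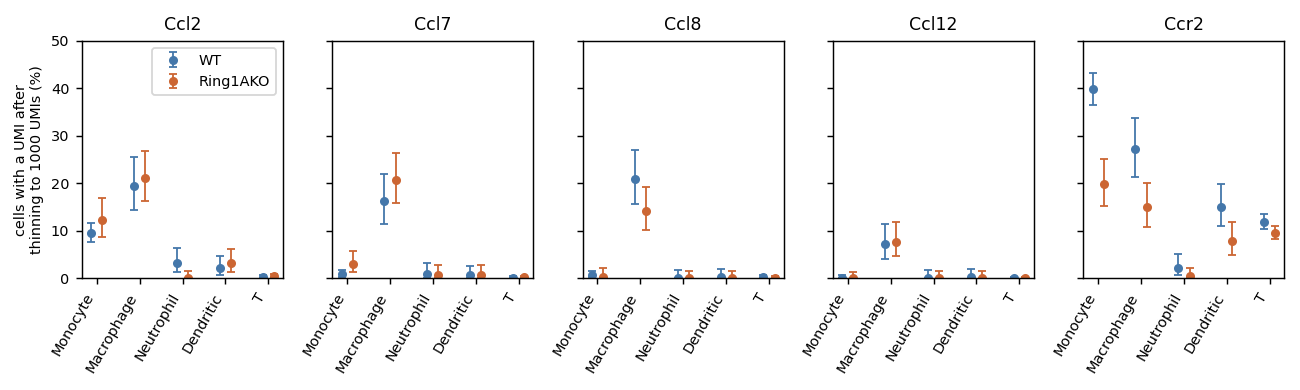
Percent of cells with a UMI of each gene after thinning to 1000 UMIs per cell, by class, with WT in blue, Ring1AKO in orange and bars for exact 95% intervals. Ccr2 in monocyte-like cells is at 39.9% in WT and 19.8% in Ring1AKO with intervals apart, and the Ccl2 intervals of monocyte-like and macrophage-like cells overlap.

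The UMIs of each gene were also followed to the classes that held them. Monocyte-like cells held 38.3% of the Ccl2 UMIs in WT and 25.5% in Ring1AKO, macrophage-like cells 14.99% and 19.7%, and neutrophil-like cells 4.62% and 0.172%. Fibroblast-like cells, which a CD45 sort should remove, held 697 of 3009 UMIs in WT and 486 of 2905 in Ring1AKO. Mast or basophil-like cells held 58 and 434. Over all kept cells Ccl2 was at 48.6 and 42.1 CPM, a log2 ratio of -0.21 (-0.28 to -0.13). For Ccr2 the share of UMIs in monocyte-like cells was smaller in Ring1AKO and that in T-like cells was larger. Monocyte-like cells held 45.5% of its UMIs in WT and 15.2% in Ring1AKO, and T-like cells 24.6% and 52.3%. These shares follow the number of cells as well as the level per cell, and over all kept cells Ccr2 was at 150.0 and 53.9 CPM.

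**Figure D5:**
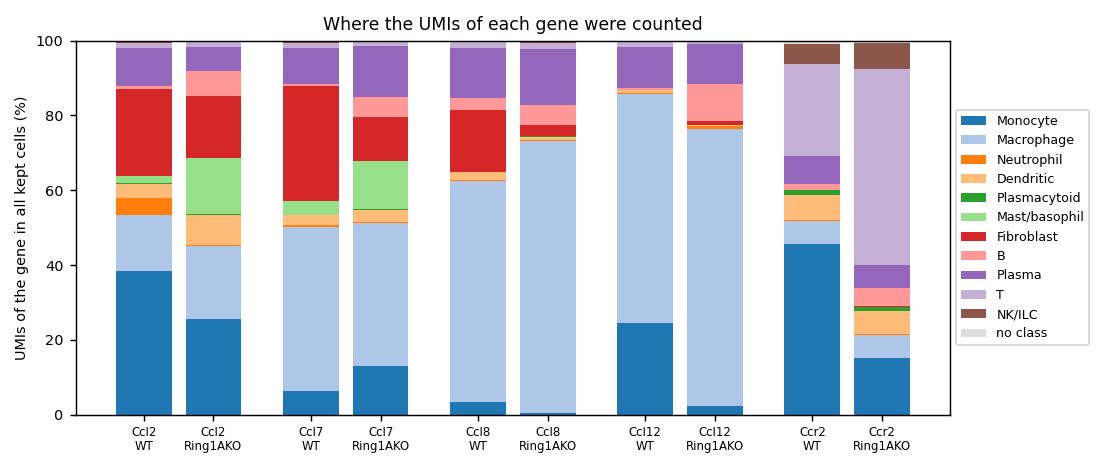
Share of the UMIs of each gene (percent of all UMIs of the gene in kept cells) held by each cell class, 1 bar per gene and library. Macrophage-like cells hold the largest part of Ccl8 and Ccl12, and the T-like part of Ccr2 goes from 24.6% in WT to 52.3% in Ring1AKO.

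Fibroblast-like cells, stromal cells that a CD45 sort should remove, numbered 76 and 50 and carried Ptprc in 14.5% and 10.0% of cells. They held Ccl2 at 1095 CPM (1015 to 1179) and 1118 CPM (1021 to 1222), a log2 ratio of 0.03 (-0.14 to 0.20), and Ccl7 at 614 and 564 CPM, a log2 ratio of -0.12 (-0.36 to 0.11). Ccl8 differed, at 328 CPM (285 to 376) and 59.8 CPM (39.1 to 87.6), a log2 ratio of -2.41 (-3.10 to -1.86), where 7.5% of 6519 genes were at least 2-fold lower and 4.17% at least 2-fold higher. It was found in 35 of 76 and 8 of 50 of these cells, and 1 WT cell held 83 of 209 UMIs. Mast or basophil-like cells, few in number with 16 and 35, held Ccl2 at 268 CPM (203 to 346) and 1305 CPM (1185 to 1433) and Ccl7 at 217 and 821 CPM. In WT 5 of them carried Ccl2 and 2 carried Ccl7, and in Ring1AKO 18 and 5 did, with 173 Ccl2 UMIs in 1 cell. Ccl8 and Ccl12 had 0 UMIs in these cells in both libraries. The class was made of 7 mast-like and 9 basophil-like cells in WT and of 30 and 5 in Ring1AKO. In mast-like cells alone Ccl2 was at 369 and 1302 CPM and Ccl7 at 327 and 876 CPM. In basophil-like cells Ccl2 was at 79.1 and 1329 CPM and Ccl7 at 13.2 and 266 CPM.

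The wider chemokine system was counted over 19 CC ligands and 15 receptors. In monocyte-like cells 11 ligands had at least 20 UMIs, of which 3 were at least 2-fold higher in Ring1AKO (Ccl2, Ccl7 and Ccl9) and 3 at least 2-fold lower (Ccl8, Ccl12 and Ccl24), where 3.12% of all genes were higher and 8.32% lower. Their median log2 ratio was 0.54, against -0.17 over all genes. Ccl3 and Ccl4, chemokines made by inflamed myeloid cells, were at log2 ratios of 0.86 and 0.89. Monocyte-like values of these ligands, and of the other gene lists below, are of the whole class. Its makeup differed between the libraries, and the part of this was not tested. In macrophage-like cells 0 of 11 ligands were past 2-fold in either direction, where 4.02% of all genes were higher and 3.18% lower. Their median log2 ratio was 0.19. In neutrophil-like cells 1 of 6 was higher (Ccl5, 93.4 and 206 CPM) and 1 lower, against 2.83% and 10.7% of all genes. The lower one was Ccl2, on whose drop the genes were selected, and no other of the 6 was at least 2-fold lower. Ccl3 and Ccl4 were at log2 ratios of -0.19 and 0.01 in neutrophil-like cells. In dendritic-like cells Ccl2, Ccl7 and Ccl17 of 11 were higher and Ccl8 lower (0.057 on the log2 scale when cells needed 2000 UMIs), against 2.72% and 7.27% of all genes. The Ccl2 ratio was 0.36 without the top 1% of cells, and that of Ccl7 kept its sign in 10 of 12 alternatives. Ccl17, a CCR4 ligand, was at 28.8 and 131 CPM. Mature dendritic-like cells were 57 of 279 and 104 of 254 cells of the class, and their part in Ccl17 was not tested.

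Among receptors with at least 20 UMIs, Ccr2 was at least 2-fold lower in each of the 4 classes and no other receptor was. Of all genes, 8.32% were at least 2-fold lower in monocyte-like, 3.18% in macrophage-like, 10.7% in neutrophil-like and 7.27% in dendritic-like cells. The Ccr2 call was at the limit in monocyte-like cells, where the log2 ratio was -0.92 with classes from clusters. It was lost in dendritic-like cells (-0.61 with classes from clusters) and in neutrophil-like cells (-0.42 without the highest doublet scores). Ccr7, the receptor that leads dendritic cells to lymph nodes, was at least 2-fold higher in monocyte-like (39.6 and 82.1 CPM), macrophage-like (78.9 and 215 CPM) and dendritic-like cells (659 and 1486 CPM). In these classes 3.12%, 4.02% and 2.72% of all genes were at least 2-fold higher. Ccr7 was itself a marker of mature dendritic-like cells, which numbered 57 of 279 and 104 of 254 dendritic-like cells, and the 6 B markers in macrophage-like cells summed to 85.2 and 383 CPM. The part of either was not tested. Ccr1 and Ccrl2 were each at a log2 ratio of 0.04 in monocyte-like cells. Of 11 genes of monocyte survival and traffic, Itga4, an integrin subunit for endothelial VCAM-1, was at least 2-fold lower in monocyte-like cells (251 and 109 CPM), where 8.32% of all genes were. It was also at least 2-fold lower in neutrophil-like cells, where 10.7% of all genes were. There Cx3cr1 (7 and 0 UMIs) and Nup85 (2 and 3 UMIs) fell under 20 UMIs. In macrophage-like cells 0 of 11 were past 2-fold, where 4.02% of all genes were higher and 3.18% lower. Cx3cr1 and Itgal were at least 2-fold lower in dendritic-like cells, where 7.27% of all genes were. Csf1r, the receptor of the main macrophage growth factor, was at log2 ratios of -0.19 in monocyte-like and -0.02 in macrophage-like cells.

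Among cytokines known to induce Ccl2, Il1a was at 169 and 457 CPM in monocyte-like cells and Csf1 at 3.82 and 9.97 CPM, both at least 2-fold higher in Ring1AKO among 7 counted, where 3.12% of all genes were. Il1b and Tnf there had log2 ratios of 0.17 and 0.07. The makeup of the monocyte-like class differed between the libraries, and its part in these values was not tested. In neutrophil-like cells 0 of 4 were higher and Csf1 was lower, at 159 and 44.3 CPM, where 10.7% of all genes were lower. In dendritic-like cells Il13, Csf1 and Csf2 of 7 were higher, at 33 UMIs or fewer per library, where 2.72% of all genes were, and in macrophage-like cells 0 of 4 were past 2-fold, where 4.02% of all genes were higher and 3.18% lower. Of 8 genes of NF-kB, a transcription factor that acts on Ccl2, 0 were past 2-fold in any of the 4 classes. Of all genes, 2.72% to 4.02% were higher and 3.18% to 10.7% lower in these classes. Nfkbia, the inhibitor of NF-kB, had log2 ratios of 0.71 in monocyte-like and 0.14 in neutrophil-like cells.

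Within macrophage-like cells Ccl2 and Ccl7 were often found in the same cells. Of WT cells with Ccl7, 73.2% also had Ccl2 and 57.7% of those with Ccl2 had Ccl7, and in Ring1AKO the shares were 76.1% and 55.1%. Ccl2 and Ccl8 were not, since 28.2% of WT cells with Ccl2 had Ccl8, as 28.6% of all WT macrophage-like cells did, and in Ring1AKO the shares were 24.5% and 22.4%. Ccl8 went less with the receptor. Of WT macrophage-like cells with Ccl8, 26.7% had Ccr2, and 59.5% of all WT macrophage-like cells did, while in Ring1AKO the shares were 23.6% and 38.2%. Cells with more UMIs hold more genes, so these shares also follow depth.

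Across 18 points, 9 classes in each library, the Pearson correlation of log2(CPM + 1) was 0.90 between Ccl2 and Ccl7, 0.84 between Ccl7 and Ccl8, and -0.04 between Ccl2 and Ccr2. The genes most like Ccl2 among 11236 were Lifr (0.94), Pla2g4a, Ctnnd1, Cd302 and Hpgd, and those most like Ccl7 were Hebp1 (0.95), Rcan1, Mmp14, Vcam1 and Sash1. For Ccl8 they were Itga9 (0.94), Gdpd1, Hebp1, Mfsd11 and Axl. For Ccl12 they were C1qa (0.93), Mmp13, Pf4, C1qc and C1qb, of which the C1q genes were markers of the macrophage-like class. For Ccr2 they were Gas2l3 (0.90), Zfp268, Ppm1h, Trim36 and Ms4a6b. The points share libraries and classes, and the values are a description.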

How the data were processed

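The 2 deposited matrices give UMI counts for all barcodes, neither normalized nor filtered for cells, which the authors made with Cell Ranger. The sources differ on its version (4 in the matrix header, 6.0.2 in the submitters' processing notes, another in the paper) and on the build (mm10 in the paper, mm39 in those notes), and Seurat is also noted. Gene IDs were matched to GENCODE vM21 (32099 of 32228). The libraries held 74414511 (WT) and 81862096 (Ring1AKO) UMIs, of which 61864835 and 69029466 were in kept cells. The genes and lists were chosen with earlier results of these data known.

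Marker scores were means of log2(1 + UMIs per 10000), each capped at its 90th percentile. A cell was placed in the class of its highest score of at least 0.2, and 120 and 93 cells fell in none of the classes described. Doublets were kept in the main values. CPM is the UMIs of a gene over the summed UMIs of the class, with 95% Poisson intervals. Shares have Clopper-Pearson intervals. Intervals of ratios are conditional on the counts. Named genes are the 5 genes, genes of the lists with at least 20 UMIs in a class, markers, and the 5 genes with the most similar pattern for each (some list genes are not reported here), among genes with at least 200 UMIs and classes with at least 50 cells. Clusters were made with scanpy 1.11.5 under Python 3.11.15. The ratio was tested on simulated Poisson counts with 200 genes changed 4-fold, where 96.2% of intervals over 9471 genes held the true value in the monocyte-like class. UMIs were independent there, so the test does not cover genes such as Ccl2 and Ccl7, whose UMIs were held by few cells. Alternatives numbered 16, with 3 added after the data were seen.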

Additional observations from a re-analysis of the deposited data

Results flagged for a closer look

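Ccl2 went in opposite directions between myeloid classes. Its log2 ratio of Ring1AKO over WT was -4.80 in neutrophil-like cells, the drop on which the genes were selected. There 62 of 139 WT UMIs were in 1 cell. The ratio was 1.26 in monocyte-like, 0.38 in macrophage-like and 1.25 in dendritic-like cells, each beyond counting error, which takes UMIs as independent. In the Chil3-led cluster, which held a larger share of monocyte-like cells in Ring1AKO than in WT, it was 0.69. Without the 1% of cells with the most UMIs, the dendritic-like ratio fell to 0.36, within counting error. Ccl12 was at -1.22 in monocyte-like cells, on 60 and 6 UMIs, and at 0.41 in macrophage-like cells. The macrophage-like ratio kept its sign in 10 of 12 alternatives and fell as low as -0.15, so its direction was not settled. Monocyte-like levels of Ccl12, 7.64 and 2.85 CPM, were near the cell-free level in WT and below it in Ring1AKO. With 1 library per genotype, the difference between the classes was not tested.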

How the results depend on the processing

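No paired analysis was possible because there was 1 library for each genotype. Ccl2 in neutrophil-like cells was lower in Ring1AKO under all 12 alternatives, with log2 ratios from -6.47 to -4.02. These reuse the counts on which the genes were selected. Of all alternative values, 351 stayed within counting error of the reported one, or near it for counts of genes, and 84 moved further. In 11 the sign changed for a reported ratio that lay beyond counting error. Sign changes of reported ratios within counting error are not among the 11. For example, Ccl12 in plasma-like cells kept its sign in 3 of 10 alternatives and Ccl2 in fibroblast-like cells in 6 of 11. The cause of these changes was not tested.

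As a mean over cells, log2 ratios were 1.01 for Ccl2 in monocyte-like, 0.71 for Ccl2, -0.37 for Ccl7 and -1.59 for Ccr2 in dendritic-like, 0.33 for Ccl7, -0.52 for Ccl8 and -0.11 for Ccl12 in macrophage-like, and -0.47 for Ccr2 in T-like cells. With a stricter gate they were 2.53 for Ccl7 in monocyte-like, -0.74 for Ccl8 and -0.15 for Ccl12 in macrophage-like, and 0.62 for Ccl2 and -0.26 for Ccr2 in dendritic-like cells. With classes from clusters they were 2.09 for Ccl7 in monocyte-like, and -0.61 and 0.70 for Ccr2 in dendritic-like and B-like cells. Without the highest 8% of Scrublet doublet scores they were 1.41 and 0.52 for Ccl2 in monocyte-like and dendritic-like cells, -0.42 for Ccr2 in neutrophil-like cells (6 UMIs in each library), and 1.22 for Ccl2 and 0.80 for Ccl8 in plasma-like cells. Without the top 1% of cells they were 4.52 and 0.76 for Ccl7 in monocyte-like and macrophage-like cells and 0.36 for Ccl2 in dendritic-like cells. At 500 UMIs Ccl8 in macrophage-like cells was at -0.55, and at 2000 UMIs Ccl12 there was at 0.82 and Ccl8 in dendritic-like cells at 0.057.

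With cells gated on Chil3, Thbs1, C1q and S100a8, chosen after seeing the data, they were 0.99 for Ccl2, 2.88 for Ccl7 and 0.13 for Ccl8 in monocyte-like, 0.85 for Ccl7 in macrophage-like and 0.20 for Ccl8 in dendritic-like cells. Without the 1 cell with the most UMIs, also chosen later, they were 1.12 for Ccl2 in monocyte-like and -0.040 for Ccl7 in dendritic-like cells, and in monocyte-like cells of the Chil3-led cluster, likewise, 0.76 for Ccl2.

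The log2 ratio of the share of monocyte-like cells with Ccr2 was -1.01 thinned to 1000 UMIs, -0.36 unthinned and -0.60 thinned to 2000 UMIs. That of the share of all cells, with B and plasma cells out of the denominator, was -1.43 for monocyte-like, 0.46 for macrophage-like, 0.43 for neutrophil-like and 0.092 for dendritic-like cells, against -2.05, -0.17, -0.19 and -0.53. Of CC ligands and receptors with at least 100 UMIs, 2 were lower in monocyte-like cells (4 at 20 UMIs) and 1 each in neutrophil-like and dendritic-like cells (2 each at 20 UMIs). Of all genes with at least 100 UMIs, 6.48%, 6.38% and 4.34% were lower there. The 1 in neutrophil-like cells was Ccl2, on which the genes were selected. At 1.5-fold, 3 were higher and 3 lower in macrophage-like cells and 2 higher in neutrophil-like cells (1, 1 and 1 at 2-fold). Of all genes 11.6%, 10.6% and 8.17% were at 1.5-fold. The low counts of Ccl8 and Ccl12 outside macrophage-like cells limit what depth can show.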

Other observations

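Ccr2 in mature dendritic-like cells was higher in Ring1AKO, unlike in the other dendritic-like cells, with 4 UMIs in 57 WT cells and 23 in 104 Ring1AKO cells, or 5.69 CPM (1.55 to 14.6) and 20.4 CPM (12.9 to 30.6). Of the 23 UMIs, 13 were in 1 cell. Plasmacytoid dendritic-like cells, which make type I interferon, had Ccr2 at 198 CPM (166 to 235) in 69 WT cells and 85.8 CPM (59.7 to 119) in 47 Ring1AKO cells.

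Ccl11, the eosinophil chemokine between Ccl7 and Ccl12 on chromosome 11, was chosen after its values were seen. Fibroblast-like cells held 481 of its 526 UMIs in WT and 287 of 335 in Ring1AKO, at 755 CPM (689 to 826) and 660 CPM (586 to 741). In the 4 myeloid classes it had at most 4 UMIs per library.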
